A study of Mus musculus with 2 samples.

Results

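Genes that encode neurotransmitter receptors on the mouse autosomes were examined in maps of cytosine modification at CpG sites. The genes were taken from GENCODE vM21 (mm10) by symbol: protein-coding genes whose names begin with Gria, Grik, Grin, Grid or Grm and a digit, Gabr, Chrn, Chrm1 to Chrm5, or Htr1 to Htr7. This gave 76 genes of 20807 autosomal protein-coding genes. The rule used names and positions only, and no measured value. One gene so matched, Grid2ip, encodes a scaffold and is not a receptor itself; it was kept with the delta genes. Genes of the X chromosome were left out by the rule, and the GABA-B receptor genes, named Gabbr, are not matched by it.

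DNA came from E14, an established mouse embryonic stem cell line with no allele or agent added, grown on gelatin in medium with fetal bovine serum and leukemia inhibitory factor. There were 2 libraries of this 1 condition, called replicate 1 and replicate 2, which the study made from 2 passages of the line, so no condition was compared with another and the spread given is that between these libraries. The method, SCoTCH-seq, keeps both strands of a DNA fragment tethered and reads each cytosine of a CpG as unmodified (C), 5-methylcytosine (M) or 5-hydroxymethylcytosine (H). Each retained read of a CpG therefore falls into 1 of 9 states, written with the plus-strand base first: CC is unmodified, MM symmetrically methylated, MC and CM hemimethylated, HC and CH hydroxymethylated opposite an unmodified cytosine, HM and MH hydroxymethylated opposite a methylcytosine, and HH hydroxymethylated on both strands. The study discarded rare calls that matched none of these.

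Receptors for glutamate, GABA, acetylcholine and serotonin carry signals across synapses. Ionotropic receptors are ion channels assembled from several subunits, and metabotropic receptors act through G proteins. Embryonic stem cells are not neurons, and in them DNA methyltransferases and TET enzymes, which oxidize 5-methylcytosine to 5-hydroxymethylcytosine, act on the same DNA. The libraries hold DNA and not RNA, so they say nothing on whether a receptor gene was transcribed.

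Replicate 1 was the deeper, with 13366464 autosomal CpG sites and 141159011 calls at a mean of 10.6 calls per site, against 4882356 sites, 31102023 calls and 6.37 calls per site in replicate 2. The promoters of 8 pluripotency genes had CC levels between 82.3% and 100% and those of Tubb3, Snap25 and Mbp, genes of neurons or glia, between 37.9% (Mbp) and 91.8% (Tubb3); Map2, Rbfox3 and Gfap had 4 to 7 promoter sites in replicate 2 and were not read. A level is the mean over CpG sites of the percentage of calls in a state. A promoter is the DNA within 1 kb of the start site (TSS) of the principal transcript, and the gene body is the rest of the gene span, exons and introns together. An annotation needed 10 sites in each replicate. All 76 gene bodies passed this in replicate 1 and 74 passed in both; Chrm4 and Chrm5, muscarinic genes of 1.44 and 1.60 kb, did not pass. For promoters, 73 passed in replicate 1 but 26 in both, for exons 68 and for introns 70.

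Promoter DNA at the ends of the observed range is shown first, since MM levels there differed most between receptor genes. Each stretch is 250 bases of mm10 upstream of the TSS and outside annotated exons, on the strand of the gene, and was picked for the number of CpG sites with calls; CpG dinucleotides are in capitals. The first 3 genes had the highest promoter MM levels of the 26 promoters measured in both replicates, and Grid1 and Grm7 were among the lowest.
Gabrr2, chr4:33062411-33062660: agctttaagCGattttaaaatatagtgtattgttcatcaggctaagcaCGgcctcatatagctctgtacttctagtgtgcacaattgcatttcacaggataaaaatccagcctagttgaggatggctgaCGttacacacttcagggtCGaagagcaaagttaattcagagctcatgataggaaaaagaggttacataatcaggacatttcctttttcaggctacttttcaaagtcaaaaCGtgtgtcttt
Chrm5, chr2:112480791-112481040: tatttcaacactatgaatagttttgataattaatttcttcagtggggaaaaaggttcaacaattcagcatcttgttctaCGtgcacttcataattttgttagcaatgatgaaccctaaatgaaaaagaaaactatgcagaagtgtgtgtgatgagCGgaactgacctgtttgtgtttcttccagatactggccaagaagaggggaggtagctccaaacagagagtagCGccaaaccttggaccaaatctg
Htr1d, chr4:136423272-136423521: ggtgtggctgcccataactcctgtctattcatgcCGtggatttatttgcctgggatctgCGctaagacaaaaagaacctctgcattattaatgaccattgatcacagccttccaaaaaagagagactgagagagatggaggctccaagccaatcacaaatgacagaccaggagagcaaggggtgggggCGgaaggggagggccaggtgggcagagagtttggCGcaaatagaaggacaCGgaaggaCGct
Grid1, chr14:34819369-34819618: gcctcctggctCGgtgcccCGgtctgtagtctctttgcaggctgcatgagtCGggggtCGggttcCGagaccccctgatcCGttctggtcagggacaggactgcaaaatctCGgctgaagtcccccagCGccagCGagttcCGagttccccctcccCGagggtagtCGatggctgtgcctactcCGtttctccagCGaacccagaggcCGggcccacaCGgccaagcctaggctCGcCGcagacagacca
Grm7, chr6:110645001-110645250: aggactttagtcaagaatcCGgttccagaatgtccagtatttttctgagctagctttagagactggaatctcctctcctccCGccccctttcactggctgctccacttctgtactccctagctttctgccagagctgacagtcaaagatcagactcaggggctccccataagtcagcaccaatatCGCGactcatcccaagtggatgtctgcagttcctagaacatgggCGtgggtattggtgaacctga

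The upstream stretch of Gabrr2, a rho subunit of GABA-A receptors, held 5 CpG sites, and 38 of 51 calls in replicate 1 and 9 of 16 calls in replicate 2 were MM. In Chrm5, the muscarinic M5 gene on the minus strand, 27 of 35 calls at 3 CpG sites were MM in replicate 1, and replicate 2 had no site there. In Htr1d, a serotonin receptor coupled to inhibitory G proteins, 27 of 32 calls were MM in replicate 1 and 3 of 5 in replicate 2. These stretches hold 3 to 6 CpG sites, most of their calls were MM, and the calls are few. The stretch of Grid1, a delta receptor gene, holds 18 CpG sites, and all 99 calls in replicate 1 and all 20 in replicate 2 were CC. In Grm7, a presynaptic metabotropic glutamate receptor, CC took 38 of 42 and 9 of 10 calls. The Grm7 stretch holds 5 CpG sites, as many as that of Gabrr2, so a low number of CpG sites in the stretch did not always go with MM calls.

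These genes had been chosen on the level of the whole promoter. Promoter MM of Gabrr2 was 70.7% in replicate 1 and 69.8% in replicate 2, and Chrm5 had 60.02% and 74.3%. Htr1d had 36.8% and 57.0%. Chrm4, the muscarinic M4 gene, followed with 28.1% and 33.1%, and Gria2, the AMPA subunit that sets calcium permeability, with 25.0% and 51.2%. Chrm4 and Chrm5 have short annotated spans, and most of each span lies within the 1 kb counted as promoter. Whether transcription begins at their annotated starts was not tested. The replicates of Gabrr2 and Chrm4 lay close together, whereas those of Gria2 and Htr1d were 20 or more percentage points apart, on 66 and 54 calls in replicate 2. At the other end, promoter MM was 0.439% and 0.952% for Grid1, and 1.63% for Grm7 in replicate 1 with 0 of 128 calls in replicate 2, which allows up to 2.34%. Htr1a, the serotonin autoreceptor, had 2.19% and 2.38%, and Grm6, the receptor of retinal ON bipolar cells, had 0.849% and 2.86%. All values of these 4 promoters lay under 3%.

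Promoters of receptor genes were less often mostly unmodified than those of all genes. A CC level of at least 75% in both replicates was found for 13 of 26 receptor promoters, or 50%, against 76.6% of all 9822 promoters measured. An MM level of at least 50% in both was found for 2, Gabrr2 and Chrm5, which is 7.69% against 4.83%. Chrm5 carries the limit on its start site given above. The other 11 promoters, 42.3%, were in neither class, against 18.6% of all. Promoter CC lay below the median gene in both replicates in 17 of 26, or 65.4%, against 42.3% of all genes. In replicate 1 alone, where 73 receptor promoters could be read, 39 or 53.4% were mostly unmodified against 67.7% of all genes, and 10 or 13.7% were mostly methylated against 15.6%. The median promoter of the 26 had 82.1% CC in replicate 1 and 73.9% in replicate 2, where the median of all genes was 93.1% and 90.8%. Its HC/CH level was 2.19% and 2.98%, against 1.14% and 1.28%.

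**Figure D1:**
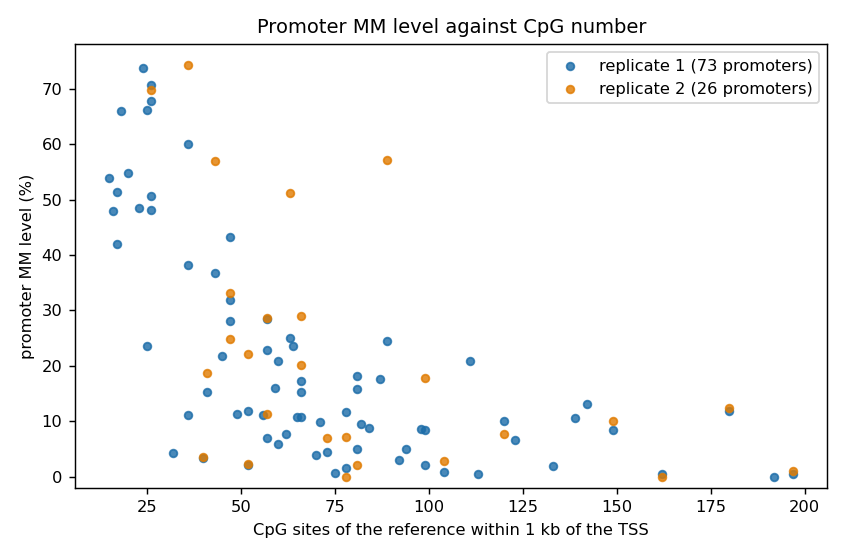
Promoter MM level (%) of receptor genes against the number of reference CpG sites within 1 kb of the TSS; each point is 1 promoter in 1 replicate with at least 10 sites. Promoters with few CpG sites reach MM levels above 70%. Those with 60 or more have a median of 8.66% and a maximum of 25.0% in replicate 1, and Gria2 has 51.2% in replicate 2.

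The plot of promoter MM against CpG number shows MM falling as the CpG number rises. Over the 26 promoters, Spearman's rho between CpG number and MM was -0.62 in replicate 1 and -0.55 in replicate 2, close to the -0.60 and -0.53 over all 9822; genes in a library share its depth, and no test was made. For sites pooled by the CpG number of their promoter, the 16 receptor promoters with under 30 CpG sites had a mean MM level of 55.9% and 63.8%, against 54.0% and 58.1% over all such promoters. The 40 with 60 or more CpG sites had a mean CC level of 83.8% and 76.1%, where all such promoters had 92.4% and 89.3%. Their MM level was 9.23% and 14.5% against 4.21% and 5.95%, and their HC/CH level 2.74% and 3.58% against 1.28% and 1.64%. In the CpG-poor class CC was 18.5% and 11.2% against 23.7% and 20.2%, and HC/CH 6.17% and 5.16% against 4.58% and 4.07%. In the 20 receptor promoters with 30 to 59 CpG sites CC was 67.1% and 62.4% against 64.4% and 60.6%, MM 21.6% and 24.2% against 23.2% and 25.7%, and HC/CH 3.72% and 4.63% against 4.17% and 4.29%. Read as the median promoter in replicate 1, the CpG-poor class turned, with 52.6% MM and 18.04% CC in receptor genes against 58.1% and 17.5%, so its differences depend on the averaging. The median CpG-dense receptor promoter had 85.4% CC against 94.3%, lower as in the pooled sites. Coverage also differed, since calls reached 32.3% and 8.64% of the CpG sites in dense receptor promoters and 40.99% and 13.8% in all dense promoters; its part in the result was not tested.

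**Figure D2:**
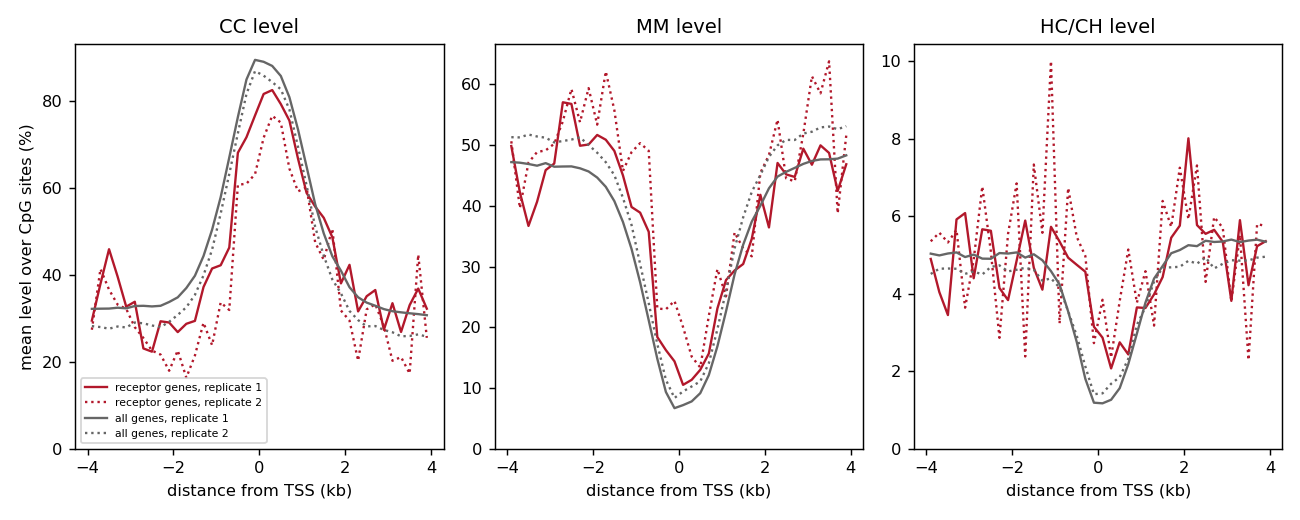
Mean CC, MM and HC/CH level (%) over CpG sites in 200-bp bins against distance from the TSS (kb), for receptor genes (red) and all genes (grey), with replicate 1 as solid and replicate 2 as dotted lines. At the TSS the red CC curve stays below and the red MM curve above the grey ones; red bins hold far fewer sites and vary more.

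In the profile around the TSS, the bin centred at 100 bp downstream had CC levels of 81.7% and 71.6% in receptor genes, against 89.1% and 85.9% in all genes. The receptor values rest on 255 sites in replicate 1 and 60 in replicate 2. HC/CH in this bin was 2.87% and 3.84% in receptor genes and 1.17% and 1.43% in all genes. Receptor CC lay below that of all genes in both replicates in every bin centred from -2700 to 1300 bp. At -900 bp it was 42.3% and 33.7%, against 58.0% and 54.2%. Farther out the CC curves of the 2 sets cross repeatedly in the receptor genes' thinly filled bins.

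Several receptor genes have a second start site at the 5′ end of the gene span, away from that of the principal transcript. For Chrna9, a nicotinic subunit of cochlear hair cells, CC was 94.8% and 85.1% at the principal promoter and 15.0% and 20.3% at the gene's 5′ end, the last on 5 sites. For Grin2d, an NMDA subunit, it was 64.9% and 46.2% against 12.3% and 0% on 3 sites in replicate 2. In both genes the start with more CpG sites was the less modified. For Grm4 the principal promoter, with 180 CpG sites, carried 8.61% and 10.0% HC/CH beside 76.0% and 75.6% CC, the highest HC/CH level in replicate 1 among the receptor promoters with 60 or more CpG sites.

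Promoters were then compared with their own gene bodies by Fisher's exact test (two-sided, on summed calls, Benjamini-Hochberg adjusted over all genes in each replicate, called when the adjusted p was under 0.05 in both replicates with 1 sign). Promoter MM was lower than body MM in 21 of 24 receptor genes that could be tested, or 87.5%, against 90.8% of all genes tested, and higher in 0, against 1.37%. The 3 genes not called were Gabrr2, Htr1d and Chrna5. As a share of summed calls, MM in Htr5b, a serotonin receptor, was 4.83% in the promoter and 61.8% in the body in replicate 1, and 1.94% and 65.2% in replicate 2. Grm7, Gabrd (the delta subunit of extrasynaptic GABA-A receptors), Grm6 and Htr7 followed, with differences between -49.5 and -63.6 percentage points over both replicates. In Gabrr2 the promoter had 69.3% and the body 64.3% in replicate 1, and 72.2% and 65.6% in replicate 2, the lone gene of the 24 with the promoter above the body in both.

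For HC/CH, the same test called 0 of 24 receptor genes in either direction, against 16% of all genes with a lower promoter and 0.447% with a higher one. In simulated counts 0 of 100 genes with promoter HC/CH lowered to 0.25 of its level were called. The simulation left 8755 of 8955 genes unchanged, so its adjusted cut-off was stricter than in the real counts, where 16% were called lower. It therefore does not give the power of the real test. The 0 of 24 lies below that 16%, but it is not read as an absence of lower promoters. At an unadjusted p under 0.05, 6 passed in replicate 1, 2 in replicate 2 and 0 in both. The promoter was the lower in both replicates in 16 of 24 and the higher in 4, with a median difference of -1.49 and -1.48 percentage points, where the median of all genes was -3.75 and -3.06. Htr5a, a serotonin receptor, was among those with a higher promoter, at 7.11% against 3.03% in replicate 1 and 8.40% against 2.98% in replicate 2, with adjusted p of 0.0042 and 0.159 (Fisher's exact test).

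Gene bodies were the best measured part, with 62771 sites and 676705 calls in replicate 1 and 22020 sites and 138883 calls in replicate 2 over the 76 genes. The median receptor gene body was 57.5% MM, 19.6% CC and 13.1% MC/CM in replicate 1, and 63.7%, 14.2% and 15.0% in replicate 2. Its HC/CH level was 3.62% and 2.94%, or 3.28% ± 0.48 (SD, n = 2), where the median of all genes was 5.17% and 4.27%, or 4.72% ± 0.63. HC/CH lay below the median gene in both replicates in 48 of 74 receptor genes, or 64.9%, against 39% of all genes, and above it in 18, or 24.3%, against 39%. HM/MH lay below in 40, or 54.1%, and above in 15, against 31.9% of all genes in each direction. MM lay above in 41, or 55.4%, and below in 28, against 43.9%. Receptor genes with little hydroxymethylation were thus more frequent than among all genes, and a minority had as much as or more than the median gene.

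Miscalls touched the HM/MH levels. In replicate 1, 2.26% of calls on the synthetic MM duplexes were read as HM and another 2.26% as MH, against 0.233% each in replicate 2. As called, HM/MH in the median receptor gene body was 3.90% and 1.91%, and 1.00% and 1.58% after solving for these call rates. The replicates differed less, and in the opposite order, once corrected. After this correction 40 of 74 genes lay below the median gene, the same number as before it, and for HC/CH 48 did.

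**Figure D3:**
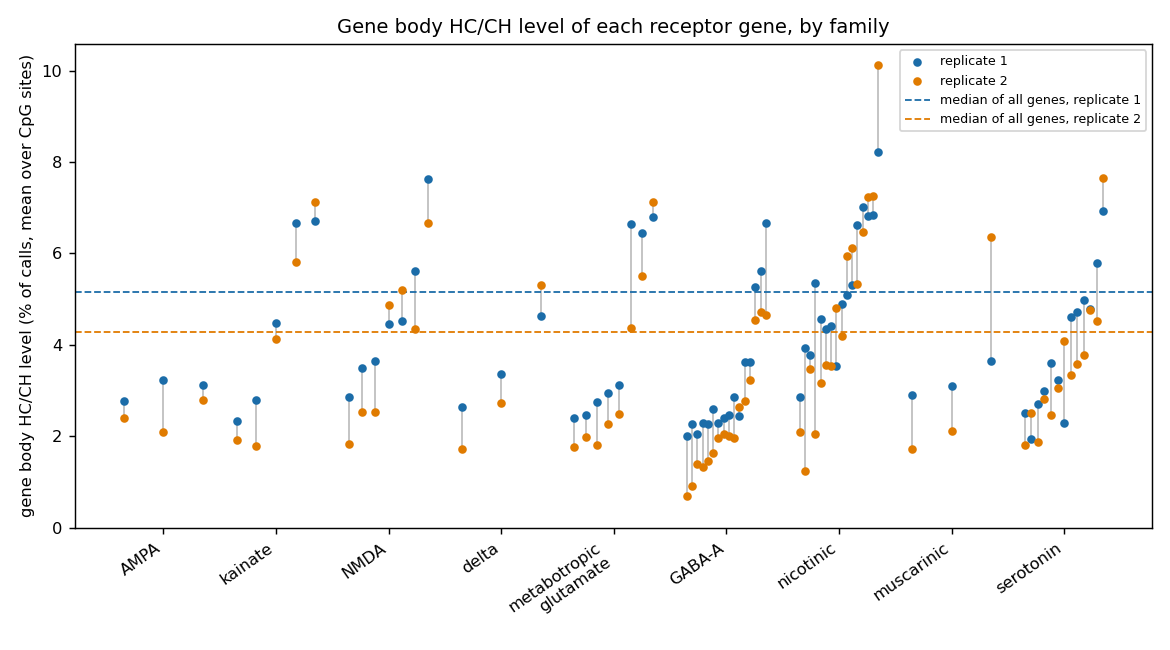
Gene body HC/CH level (%) of the 74 receptor genes measured in both replicates, by family; each gene is a pair of points joined by a grey line, blue for replicate 1 and orange for replicate 2, with dashed lines at the median of all genes. GABA-A genes gather at the bottom with 3 exceptions, and nicotinic genes hold the highest pair of points, that of Chrng.

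Among ionotropic glutamate receptors, which carry fast excitation, all 3 AMPA subunits measured lay below the median gene in both replicates. Gria1 had 3.11% and 2.79% HC/CH, Gria2 3.24% and 2.09%, and Gria4 2.76% and 2.39%. All 6 values lay between 2.09% and 3.24%. Kainate subunits split by gene. Grik1 had 2.33% and 1.93% and Grik2 2.80% and 1.78%, both low. Grik3 had 6.66% and 5.82%, and Grik5, a subunit that assembles with the others, 6.72% and 7.13%, both above the median gene in both replicates. Grik4, a subunit of the same kind as Grik5, lay between at 4.47% and 4.13%, and its values overlapped with neither pair. Of 7 NMDA subunit genes, which encode the coincidence-detecting glutamate channel, 3 lay below and 2 above. The long genes Grin2a (3.64% and 2.53%), Grin2b (3.50% and 2.52%) and Grin3a (2.86% and 1.83%) were low. Grin3b, a short gene with 47.1% of its covered sites inside another gene, had 7.62% and 6.68%, and Grin1, the obligatory subunit, 5.62% and 4.35%. Among the delta genes, Grid1 had 3.36% and 2.74%, while Grid2ip had 4.63% and 5.31%.

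The metabotropic glutamate receptors fall into 3 groups by sequence and coupling. Group I, which couples to phospholipase C, included Grm5, which was low with 2.39% and 1.77%. In group II, which inhibits adenylyl cyclase, Grm2 had 6.79% and 7.14% and Grm3 3.12% and 2.48%. The paralogs Grm2 and Grm3 span 13.0 and 240 kb, and their values did not overlap. In group III, Grm4 had 6.44% and 5.50% and Grm6 6.64% and 4.38%, above the median gene in both replicates. Grm7 had 2.47% and 1.98% and Grm8 2.75% and 1.81%, below it. Each of groups II and III held genes on both sides.

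GABA-A receptors are chloride channels of fast inhibition, and most of their subunit genes sit in clusters. On chromosome 5 the cluster runs from Gabrg1 (chr5:70751047-70842617) through Gabra2 and Gabra4 to Gabrb1 (chr5:71658113-72149037). Others lie on chromosome 11, with Gabra6 and Gabrb2 (chr11:42419757-42629028), and on chromosome 7, with Gabrg3 and Gabra5 (chr7:57407672-57510059). Among the lowest body HC/CH levels of receptor genes with at least 50 sites in each replicate were those of Gabra2, with 2.06% and 1.40%, and of Gabrg1, with 2.26% and 0.920%. Gabra4 had 2.28% and 1.96% and Gabrb2 2.29% and 1.32%. The ranges of the replicates overlapped among these 4. All 11 clustered genes lay below the median gene in both replicates, at a median of 2.29% and 1.62%; since neighbours share a region they are not independent, and 84.0% of the covered Gabra5 sites lie inside another gene.

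The clusters differed in symmetric methylation. On chromosome 5 body MM was 62.7% to 64.3% in replicate 1 and 67.6% to 72.5% in replicate 2, above the median gene in 4 of 4. On chromosome 7 it was 53.7% and 53.2% in Gabrg3 and 54.5% and 55.4% in Gabra5, below the median gene in both. The values of Gabrg3 and Gabra5 lay under the chromosome 5 range in both replicates, although HC/CH was low on both chromosomes. Hemimethylated calls (MC/CM) were above the median gene in both replicates in 10 of the 11, against 39.3% of all genes.

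Outside the clusters, Gabrd had 2.85% and 1.96% HC/CH. The rho and pi subunits, which form or join receptors outside the brain's main synaptic type, were higher. Gabrp had 6.66% and 4.65%, Gabrr2 5.62% and 4.72% and Gabrr1 5.26% and 4.55%, each above the median gene in both replicates, while Gabrr3 had 3.62% and 2.77%. In replicate 2 these 3 lay between 4.55% and 4.72%, little above the 4.27% of the median gene. Gabrr1 and Gabrr2 are neighbours too, and so are not independent.

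Nicotinic acetylcholine receptors are cation channels of neurons, ganglia and the muscle endplate. Of 16 genes, 6 lay above and 7 below the median gene in both replicates, shares near the 39% of all genes in each direction. The muscle subunits Chrna1, Chrnb1, Chrnd, Chrne and Chrng had 4 of 5 above. Among these, Chrnd and Chrng are neighbours with nearly the same flanks, so they are not independent. Chrng, the fetal gamma subunit, had 8.23% and 10.1%, on 58 and 24 sites, and Chrnd 6.85% and 7.26%. Chrnb1 had 6.63% and 5.32%, Chrne, the adult subunit, 5.31% and 6.11%, and Chrna1 4.89% and 4.19%. Of the others, Chrna9 had 7.02% and 6.47%, and Chrna10, its partner in hair cells, 6.82% and 7.24% on 66 and 18 sites. Chrna10 has 60% of its covered sites inside another gene. Chrna7, the homomeric alpha 7 subunit, had 2.85% and 2.10% and Chrna6 3.92% and 1.23%, both below. In the chromosome 9 cluster, Chrna3 had 4.56% and 3.17%, Chrnb4 3.77% and 3.46% and Chrna5 3.55% and 4.797%, so that 2 of 3 lay below the median gene in both replicates.

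Muscarinic receptors, which couple acetylcholine to G proteins, were measured in 3 of 5 genes. Chrm2 had 3.1001% and 2.12% and Chrm3 2.89% and 1.71%, both below the median gene. Chrm1 had 3.64% and 6.37%, on 52 sites in replicate 2, and so fell on different sides. Of 13 serotonin receptor genes, 10 lay below the median gene in both replicates and 2 above. Among the 10 is Htr2b, with 100% of its covered sites inside another gene. Htr1d, with 6.93% and 7.65%, ranked first on the lower replicate among receptor genes with at least 50 sites in each replicate. In replicate 1 Chrna9 was higher, at 7.02%. With summed calls the mean of Htr1d was 6.82%, below Grm2 (6.97%) and Grik5 (6.93%), so its first place depends on the averaging. Htr3b, a subunit of the serotonin-gated channel, had 5.80% and 4.51%. Htr1f, the family's gene with the most reference CpG sites, had 2.71% and 1.86%, and Htr4 had 2.51% and 1.7998%. Htr1b had the lowest level of all in replicate 1, 1.94%, with 2.51% in replicate 2, on 66 and 27 sites.

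For the second asymmetric form, HM/MH, the highest genes with at least 50 sites, ranked on the lower replicate, were Htr1d, with 4.55% and 4.23%, Chrnb2, with 5.77% and 4.18%, and Gabrr2, with 4.36% and 4.12%. The lowest were Gabra5, with 2.94% and 2.06%, Grm5, with 3.09% and 1.17%, and Gabrg3, with 3.096% and 1.88%. Of the highest, Chrnb2 has 38.3% of its covered sites inside another gene. Replicates ordered the genes less alike for HM/MH than for HC/CH, with a Spearman's rho over 74 genes of 0.44 against 0.85.

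**Figure D4:**
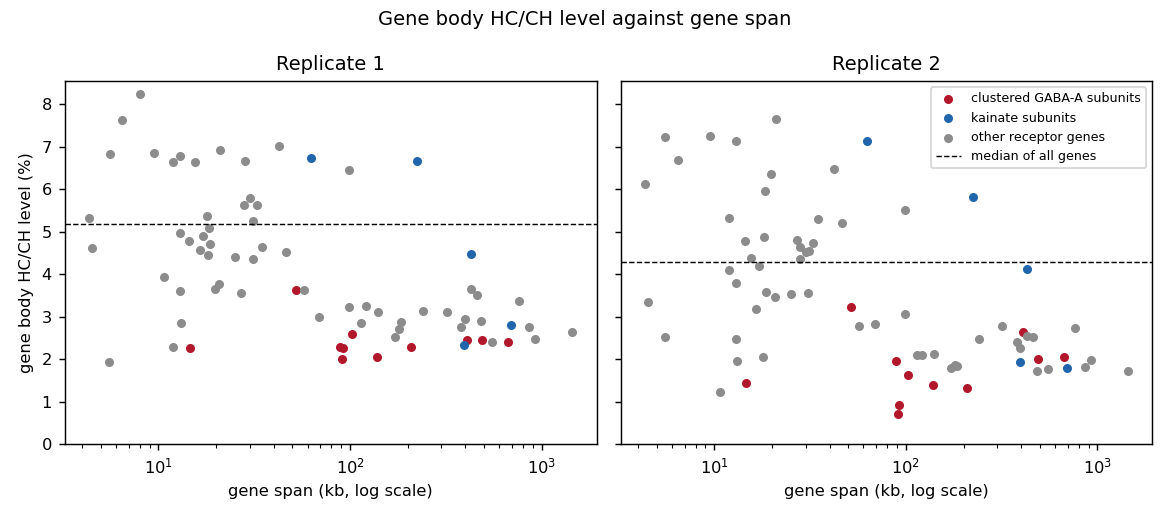
Gene body HC/CH level (%) against gene span (kb, log scale) in each replicate, with clustered GABA-A subunits in red, kainate subunits in blue and the other receptor genes in grey; the dashed line is the median of all genes. Beyond about 100 kb nearly all points lie below the line, with Grik3 above it.

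Long receptor genes had low body HC/CH. Spearman's rho between span and body HC/CH was -0.53 in replicate 1 and -0.53 in replicate 2 over the 74 genes, and -0.13 and -0.14 over all 16555 genes, given as a description since genes share a library and neighbours a region. Of the receptor genes, 17 spanned over 300 kb and had a median HC/CH level of 2.76% and 2.05%, against 3.36% and 2.53% over 541 genes of that size. The 11 of 100 to 300 kb had 2.85% and 1.86%, against 4.58% and 3.72% over 1821 genes. The 15 of 30 to 100 kb had 4.34% and 3.56% against 5.22% and 4.28%, and the 31 up to 30 kb had 4.89% and 4.38% against 5.41% and 4.58%. The receptor medians were lower in each size class and replicate, and the gap to other genes of the same size was largest at 100 to 300 kb. Grik3, at 223 kb, and Grik4, at 426 kb, were the long genes with the highest levels.

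The DNA around receptor genes was low as well. Intergenic CpG sites within 100 kb of a gene had a median HC/CH level of 4.17% and 3.35% for 72 receptor genes with enough such sites, against 4.92% and 4.22% for 16192 genes. The body lay below its own flanks in both replicates in 31 of 72, or 43.1%, against 29.6% of all genes, and above in 26, or 36.1%, against 37.8%. For the clustered GABA-A subunits the flanks of 10 genes could be read, and their median was 2.41% and 1.43%, with some flanks shared between neighbours. The highest flanks of the 10 were those of Gabrb1, with 5.27% and 3.596%, against 2.46% and 2.00% in its body. Outside the clusters, Chrng had 5.05% and 4.603% in its flanks against 8.23% and 10.1% in its body, Grik5 4.11% and 3.78% against 6.72% and 7.13%, and Gabrd 5.97% and 5.47% against 2.85% and 1.96%. These 3 genes stood apart from the DNA around them, in both directions.

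HC/CH was also read in windows of the receptor genes. Windows of all these genes were pooled, so differences between genes enter the spread as well as differences within them. Gene spans were read in 1-kb windows with at least 8 sites in replicate 1 and 5 in replicate 2, ranked on replicate 1 and then read in replicate 2, which the ranking did not use. Of 832 windows in 74 genes, the median HC/CH of the 20 highest was 13.97%, and in replicate 2 the same windows had 8.84%. There the median window had 2.86%, and 18 of the 20 lay above it. Grm4 held 4 of the 20, Grik3 and Grik4 3 each, counts that were not set against the number of windows of each gene. At Htr2a, a serotonin receptor coupled to phospholipase C, a window overlapping the promoter had 12.9% and 22.9%, while its gene body had 2.98% and 2.82%. A Grm4 window overlapping the promoter had 24.2% and 10.0%. The 3 Grik4 windows, with 12.1% to 12.7% in replicate 1, had 5.56%, 0% and 2.86% in replicate 2, on 5 or 6 sites each. A Grik3 intron window had 15.1% and 12.6%.

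The 250 bases with the most CpG sites read in both replicates are shown for the pair of intronic windows that, among these 20, had the highest levels in replicate 2, on the strand of the gene, again with CpG sites in capitals, so that the sequence behind these calls can be seen.
Chrnb1, chr11:69789729-69789978: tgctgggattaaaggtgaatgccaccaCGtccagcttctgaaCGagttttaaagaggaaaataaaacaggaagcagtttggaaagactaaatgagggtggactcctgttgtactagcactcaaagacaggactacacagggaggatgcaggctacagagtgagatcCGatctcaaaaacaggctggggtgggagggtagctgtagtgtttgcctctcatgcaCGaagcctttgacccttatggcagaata
Grik3, chr4:125618122-125618371: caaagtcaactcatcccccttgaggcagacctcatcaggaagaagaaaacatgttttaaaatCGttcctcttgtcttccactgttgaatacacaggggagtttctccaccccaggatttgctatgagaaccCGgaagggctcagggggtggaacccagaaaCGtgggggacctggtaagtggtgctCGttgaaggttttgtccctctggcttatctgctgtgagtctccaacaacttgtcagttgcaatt

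Both stretches hold 4 CpG sites. In Chrnb1, 5 of 22 calls in replicate 1 and 1 of 17 in replicate 2 were HC or CH, and in Grik3 7 of 37 and 3 of 19 were. The window levels thus rest on few calls, and the Chrnb1 level in replicate 2 came mostly from sites outside the stretch.

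Exons were set against introns of the same gene, outside the promoter, with the same Fisher's exact test. For MM, 6 of 64 receptor genes, or 9.38%, had higher exons in both replicates, against 14.4% of all genes, and 9, or 14.1%, had lower exons, against 11.8%. Chrm1 had 23.1% MM in exons and 58.5% in introns in replicate 1, and 15.8% and 64.1% in replicate 2. Htr6, a serotonin receptor that raises cyclic AMP, had 27.0% against 56.0% and 14.1% against 63.0%. Grin2d had 21.8% against 49.3% and 17.99% against 54.9%. The differences of these 3 genes ran from -27.4 to -48.9 percentage points. Grm2 (27.1% against 45.5% in replicate 1) and Grik5 (43.1% against 55.9%) completed the 5 with the lowest exons, and Chrne, Grik2, Grm8 and Gabrp were also called. In the other direction, exons of Gabra5 had 74.5% against 50.9% in introns and 73.0% against 54.0%. Chrna7 had 75% against 54.5% and 72.5% against 57.2%, and Grik3 61.7% against 47.5% and 72.4% against 51.3%. Chrna5 had 63.0% against 49.6% and 72.4% against 56.8%, Htr3b 62.6% against 55.2% and 73.8% against 55.5%, and Gabrg3 was the sixth. The shares near those of all genes leave nothing to read about the receptor genes as a group, and the single genes differ widely.

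**Figure D5:**
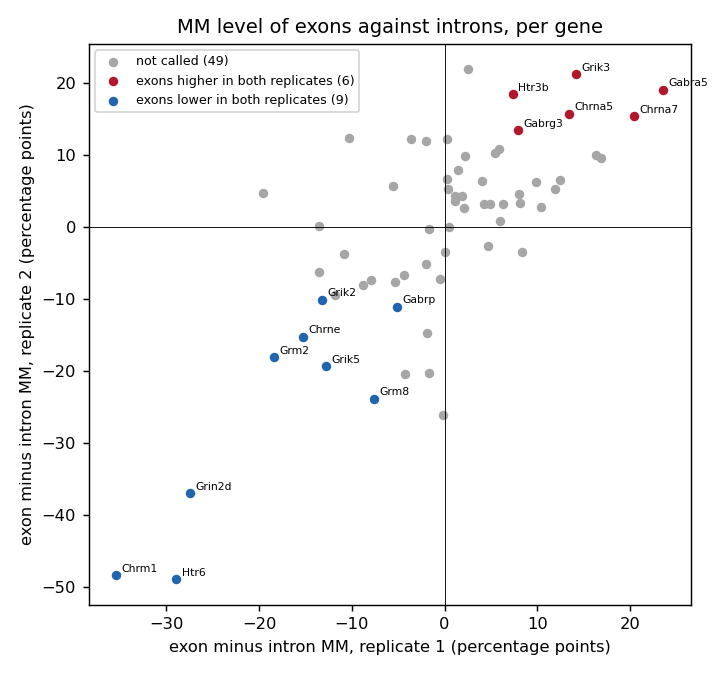
Exon minus intron MM level (percentage points, from summed calls) of 64 receptor genes, replicate 1 on the x axis and replicate 2 on the y axis; red and blue points are called higher and lower in both replicates. Chrm1, Htr6 and Grin2d lie farthest out, at lower left.

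For HC/CH, 0 of 64 genes were called in either direction by Fisher's exact test, against 0.432% of all genes with higher and 0.0687% with lower exons. At an unadjusted p under 0.05, 17 passed in replicate 1, 7 in replicate 2 and 1 in both. Exons were the higher in both replicates in 30 genes and the lower in 14, and the median difference was 0.442 and 0.924 percentage points, where the median of all genes was 0.279 and 0.156. In simulated counts 2 of 100 genes with exon HC/CH lowered to 0.25 of its level were called. A lower exon level of this size was thus rarely detectable at this depth where few genes were lowered. Higher exon levels were not simulated. The orientation of hydroxymethylcytosine to the gene was tested by an exact binomial test on sense and antisense calls. It called 0 of 74 receptor genes, against 0% of all genes; 7 passed an unadjusted p under 0.05 in replicate 1, 3 in replicate 2 and 1 in both. The median sense minus antisense difference was -0.112 in replicate 1 and 0 in replicate 2, in percentage points. For the methylcytosine of hemimethylated CpG sites the test also called 0 of 74, against 0% of all genes, with 12, 10 and 4 at an unadjusted p under 0.05.

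Lists of related genes were read beside the receptors: synthesis and transport of transmitters, scaffolds and auxiliary subunits, and other receptors. The last list holds receptors for other transmitters and the GABA-B receptor genes Gabbr1 and Gabbr2, whose symbols the rule does not match. Body HC/CH lay below the median gene in both replicates in 19 of 29 synthesis and transport genes and above in 5, against 39% of all genes in each direction. Among scaffolds and auxiliary subunits it lay below in 19 of 40 and above in 16, and among the other receptors below in 11 of 21 and above in 5. Their median levels were 4.35% and 3.13%, 4.96% and 3.87%, and 4.57% and 3.78%, each above the 3.62% and 2.94% of the receptor genes. Among genes with at least 50 sites in each replicate, the highest and lowest included Gls2, a glutaminase, with 8.48% and 7.32%, against Nrxn3, a presynaptic adhesion molecule, with 2.38% and 1.95%, and Glra3, a glycine receptor subunit, with 2.14% and 2.33%.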

How the data were processed

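Genomic DNA of E14 cells was read by SCoTCH-seq in 2 libraries. Per the study's methods and the labels, the authors trimmed reads with Cutadapt 4.6 and aligned them to mm10 with BSBolt. They processed alignments with SAMtools, removed duplicates with Picard 3.1.1, and discarded sites with under 5 calls or in blacklisted regions. The deposited counts of each CpG state and the deposited percent of calls were used; percent equalled count over depth in every row, and the values had not been corrected with the synthetic duplexes. Sites were assigned to GENCODE vM21 genes, and levels, Fisher's exact tests, exact binomial tests and Benjamini-Hochberg adjustment were computed with NumPy 2.4.6 and SciPy 1.17.1. These tests cover counting error only, as do limits for a count of 0 (3 calls), so both replicates had to pass. Calls of neighbouring CpG sites on 1 fragment, and any PCR copies left after duplicate removal, are not independent. They were summed as if they were. Scripts were tested on simulated data: at 8955 genes, a promoter MM level lowered to 0.25 was called in 98 of 100, and a promoter HC/CH level so lowered in 0 of 100. Most genes were left unchanged there, so the adjusted cut-off for promoter HC/CH was stricter than in the real counts. The genes, lists and named-gene rule (highest and lowest levels, largest called differences, most sites per family, clusters) were chosen with earlier results of these data known. Flanks, windows, size and CpG classes and the alternative start sites were added after seeing the data. Alternatives were the spike-in correction, summed calls, a minimum of 10 calls or of 20 sites, sites shared by both replicates, overlapping genes left out, other start sites and promoter widths, and each replicate alone. RNA was not analysed here. A few genes that meet the named-gene rule are not reported here.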

Additional observations from a re-analysis of the deposited data

How the results depend on the processing

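Read against the share of all genes, some counts changed sides. Mostly methylated promoters, above that share in the report, lay below it without replicate 2 (10 of 73, against 15.6%), with at least 20 sites (0 of 3, against 0.5%) and with 500 bp either side of the TSS (0 of 4, against 1.17%). Mostly unmodified promoters, below it in the report, lay above it with 500 bp (4 of 4, against 94.1%). Genes with promoter MM lower than body MM lay above it without replicate 2 (23 of 24, against 93.4%), with at least 20 sites and with 500 bp, and genes with exon MM lower than intron MM lay just below it without overlapping genes (7 of 60, against 11.7%). Counts of 0 in the report passed it for higher exon HC/CH in each replicate alone, with 2 of 64 in replicate 2 (against 1.18%) and 8 of 64 in replicate 1 (against 6.67%). Promoter HC/CH was higher in 1 of 24 in replicate 1 alone (against 2.93%), and sense methylcytosine of hemimethylated sites lower in 1 of 74 (against 0.296%). With a minimum of 10 calls per site, 28 gene bodies remained; their median HC/CH level was 2.48%, and HC/CH, HM/MH and MM lay below the median gene in 24, 21 and 9. The spike-in correction moved the median HM/MH level of gene bodies to 1.29%. Promoter values moved most. With at least 20 sites, 3 promoters remained, with median CC, MM and HC/CH of 94.2%, 3.54% and 1.13%, 2 of them mostly unmodified and 0 mostly methylated. With sites covered in both replicates, 19 remained, with median CC of 87.7% and MM of 8.92%, and 1 mostly methylated. With 500 bp either side of the TSS, 4 remained, with 87.3%, 6.26% and 3.16%, 4 mostly unmodified and 0 mostly methylated. With 2 kb upstream of the TSS, 11 remained, with 53.9%, 27.3% and 3.69%, and 2 mostly unmodified. Promoter MM was lower than body MM in 3 of 3, 4 of 4 and 6 of 11 genes under at least 20 sites, 500 bp and 2 kb upstream, and exon MM was lower than intron MM in 5 of 34 genes with at least 20 sites; fewer genes could be tested in each.

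Read in 1 replicate at a time, the median body HC/CH level was 2.94% to 3.63%, HM/MH 1.91% to 3.90% and MM 57.5% to 63.7%, and the numbers of genes below the median gene were 49 to 54, 48 to 51 and 30 to 32. Promoter medians were 73.9% to 76.8% CC, 11.9% to 15.1% MM and 2.95% to 2.98% HC/CH, with 13 to 39 mostly unmodified and 5 to 10 mostly methylated; replicate 2 held 26 promoters and replicate 1 held 73, so the unmodified shares were 50% and 53.4% and the methylated ones 19.2% and 13.7%. Promoter MM was lower in 21 to 23 and higher in 0; promoter HC/CH was lower in 0 to 5 of 24, against 16.4% of all genes in replicate 2 and 67.9% in replicate 1, and higher in 0 to 1. Exon HC/CH was higher in 2 to 8 and lower in 0 to 1, and exon MM higher in 9 to 18 and lower in 13 to 18. Sense hmC was called in 0 either way, and sense methylcytosine of hemimethylated sites higher in 0 and lower in 0 to 1. The exon differences of Chrna5 (10.8 percentage points) and Htr3b (12.1) were no longer called on sites shared by both replicates. The libraries carried no numbers that pair groups: No paired analysis was possible because there is 1 group. Promoter results rest on replicate 2, in which 26 promoters held 10 sites.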
